A study of Mus musculus with 6 samples.

Results

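The genes described here are those of the BCL2 family, the caspases, the inhibitor of apoptosis (IAP) proteins and a set of p53 target genes, in brown fat that lost seipin. They were taken by symbol: every listed gene whose symbol starts with Bcl2, Casp plus a digit or Birc plus a digit (20 rows), and 22 single names, of which 21 had a row and Pmaip1 was not analysed here. This gave 41 of 12966 listed genes. The tissue was brown adipose tissue from male C57BL/6J mice at 10 weeks of age. Ctrl animals carried Bscl2f/f, the floxed alleles of the seipin gene, and BKO animals carried Bscl2f/f together with Ucp1Cre, a Cre recombinase driven by the promoter of Ucp1, a gene of brown adipocytes. Each group had 3 libraries. Both groups thus share the floxed alleles, and the Cre transgene itself and the loss of Bscl2 cannot be told apart. The tissue holds other cells that the Cre does not target, and fewer cells of a type and less RNA per cell cannot be told apart in such bulk samples. Whether the libraries stem from different animals is not in the labels, so every p-value measures the spread between these libraries, which may be technical. Values of a group are always listed in the order of libraries 1, 2 and 3.

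Cells carry out apoptosis by a cascade that these genes encode. At the mitochondrion, BAX and BAK open the outer membrane, guards such as BCL-XL and MCL1 hold them back, and BH3-only proteins tip the balance when a cell is stressed. Cytochrome c then assembles with APAF1 to activate caspase-9, which cleaves the executioner caspases, while IAP proteins restrain them and SMAC (Diablo) lifts that restraint. The transcription factor p53 raises the transcription of several members, and others that halt the cell cycle, when DNA is damaged or nutrients run short. Much of this system is controlled after transcription, by cleavage, phosphorylation and protein turnover, which mRNA levels do not show.

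Values are FPKM, fragments scaled by transcript length and by the size of the library. Changes are BKO minus Ctrl on the log2(FPKM + 1) scale, from a linear model (limma) fitted to the 11397 genes whose mean over the libraries reached 1 FPKM, with p-values adjusted over all of them (Benjamini-Hochberg). The scale understates changes of low genes, and read numbers are not known for these libraries. The targeted gene was checked first. Bscl2 stood at 116, 104 and 106 FPKM in Ctrl and at 16.5, 16.9 and 18.9 FPKM in BKO, or 16.0% of the Ctrl mean (exact two-sided permutation p = 0.1, the smallest that 3 against 3 libraries allow). The brown adipocyte markers were all listed above 0, and their summed level was 18917 to 19624 FPKM in Ctrl and 19201 to 21331 FPKM in BKO. Of the 8 markers, 0 passed after adjustment and 5 had a positive change. Cidea was lower in every BKO library, at 1239 to 1378 FPKM against 1478 to 1564 FPKM in Ctrl (limma, unadjusted p = 0.0287, adjusted p = 0.431). The summed skeletal muscle markers spread within the groups, from 81.5 to 546 FPKM in Ctrl and from 115 to 345 FPKM in BKO.

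None of the 37 members tested passed the test after adjustment, and 4 were too low to be tested. Of the 37, 0 passed an adjusted p below 0.05 (limma, Benjamini-Hochberg), against 0.167% of all genes tested, and the lowest adjusted p of a member was 0.287, for Bik. At an unadjusted p below 0.05, 2 members were higher, Bik and Gadd45b, which is 5.41% against 6.63% of all genes. Bik, with a Ctrl mean of 0.947 FPKM, reached the filter only through its BKO values, which favours a higher call. None was lower at that level, against 3.52% of all genes. The 3 BKO libraries lay above the 3 Ctrl libraries for 3 tested members (Bik, Fas and Trp53), 8.11% against 9.06% of all genes, and below them for 0, against 6.82%. These shares are near or under those of all genes. The median change was 0.07 over the tested members and 0.01 over all genes, with 23 members positive and 14 negative. For 28 of the 37, the 95% interval of the change stayed inside a 1.5-fold difference in either direction on that scale, and for 9 it reached beyond. The intervals of Bik and Gadd45b left out 0. The widest interval was that of Trp53inp1, from -0.49 to 1.52.

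**Figure D1:**
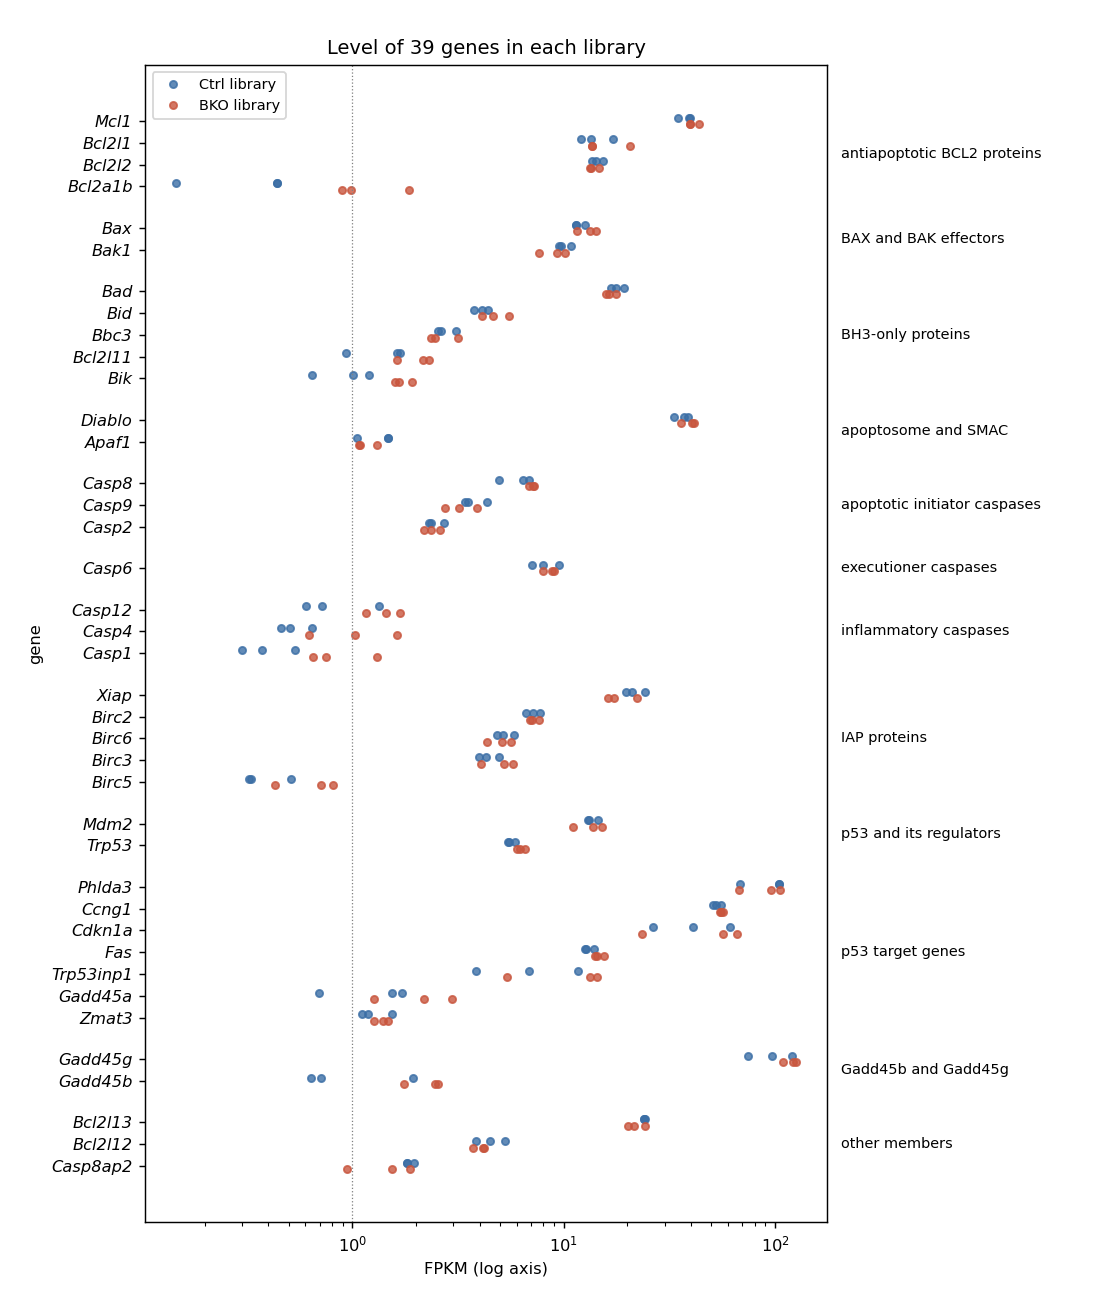
FPKM (log axis) of 39 genes, grouped by role, with 1 point per library (Ctrl blue, BKO red) and a dotted line at 1 FPKM. Gadd45g, Phlda3 and Ccng1 were the 3 genes above a mean of 50 FPKM, and for most genes the points of the 2 groups are mixed.

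**Figure D2:**
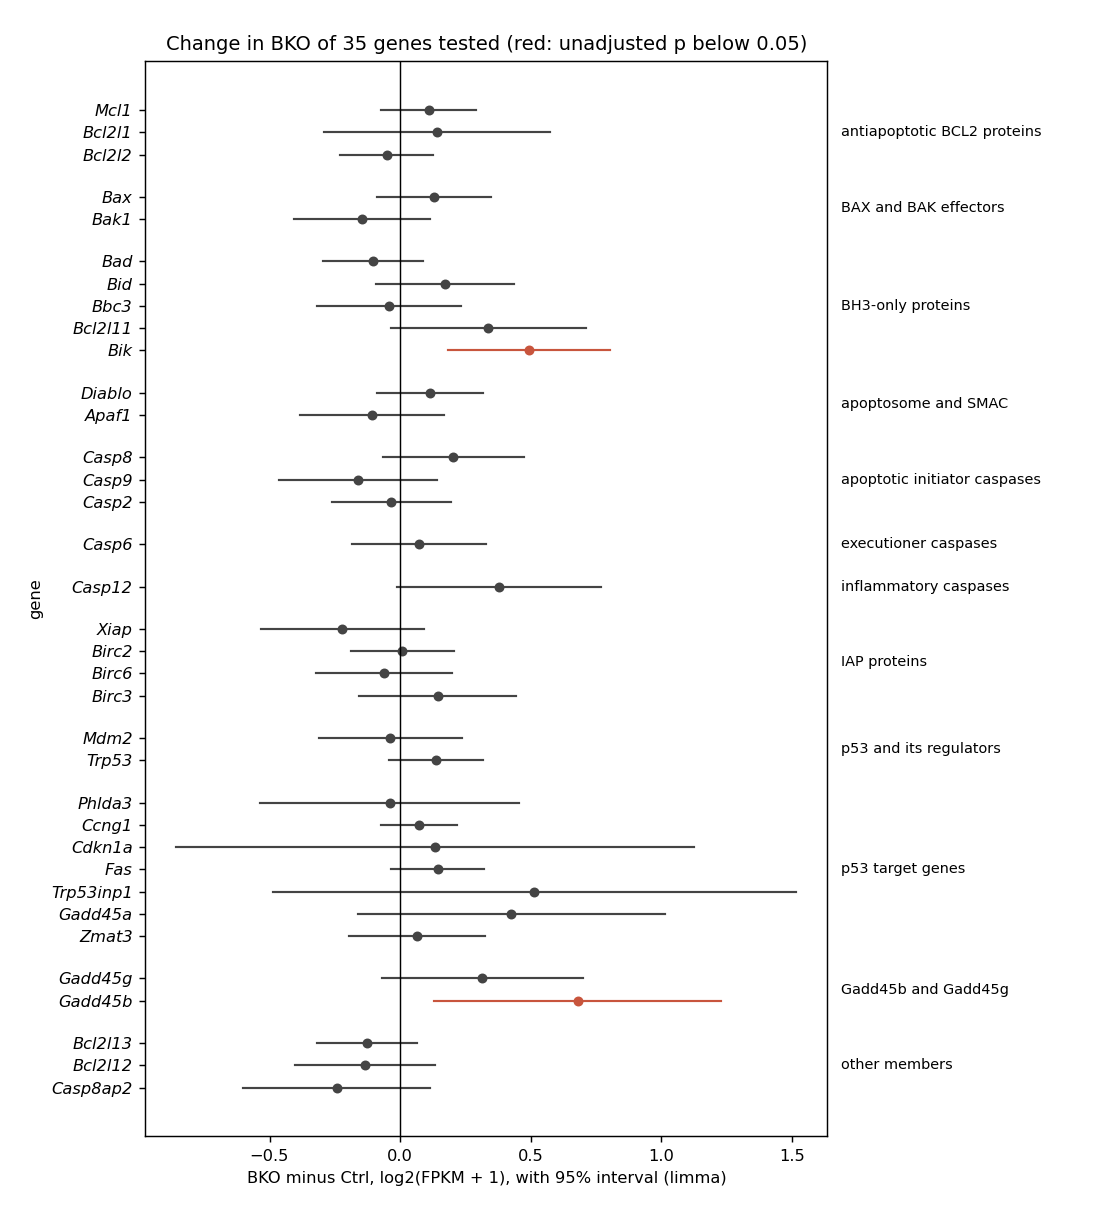
Change in BKO against Ctrl on the log2(FPKM + 1) scale for 35 genes tested, with 95% intervals from limma. Bik and Gadd45b (red) have intervals that leave out 0, and 0 of the 35 passed after adjustment. Bik reached the filter only through its BKO values.

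The level of these genes in brown fat spanned a wide range. FPKM is scaled by transcript length, so levels can be set side by side between genes. Gadd45g, with a mean of 108 FPKM over the 6 libraries, lay above 95.2% of all genes tested, followed by Phlda3 (90.9 FPKM), Ccng1 (54.4 FPKM), Cdkn1a (45.8 FPKM), Mcl1 (39.4 FPKM) and Diablo (37.8 FPKM). In all, 11 members had means between 10 and 50 FPKM, and 23 lay between 1 and 10 FPKM. Bcl2a1b, Birc5, Casp1 and Casp4 had means under 1 FPKM and were not tested.

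The guards against apoptosis were led by Mcl1, a short-lived protein that binds BAK and BH3-only proteins. Mcl1 stood at 39.5, 34.9 and 39.2 FPKM in Ctrl and at 39.7, 43.5 and 39.5 FPKM in BKO. The groups overlapped, and the change was 0.11 (95% interval -0.07 to 0.29). Bcl2l1, which encodes BCL-XL, stood at 13.4, 12.04 and 17.1 FPKM in the Ctrl libraries and at 13.6, 20.6 and 13.6 FPKM in the BKO libraries. BKO-2 was highest for Bcl2l1, and without it the change went from 0.14 to -0.05. Bcl2l2, which encodes BCL-W, was the steadiest of these guards, with means of 14.4 ± 0.842 and 13.8 ± 0.707 FPKM in Ctrl and BKO (SD, n = 3 per group). Gene-level values do not separate the long from the short splice forms of Bcl2l1 or Mcl1. Bcl2 itself was not analysed here.

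The effectors that open the mitochondrial outer membrane, Bax and Bak1, had changes of opposite sign, neither past the test. Bax stood at 12.7, 11.4 and 11.4 FPKM in Ctrl and at 14.3, 13.3 and 11.6 FPKM in BKO, a change of 0.13 (95% interval -0.09 to 0.35). Bak1 stood at 10.8, 9.71 and 9.52 FPKM in Ctrl and at 9.27, 10.1 and 7.61 FPKM in BKO, a change of -0.15 (95% interval -0.41 to 0.11). The groups overlapped for both genes. The summed level of Mcl1, Bcl2l1 and Bcl2l2 was 2.86, 2.95 and 3.34 times that of Bax and Bak1 in Ctrl and 2.84, 3.36 and 3.45 times in BKO. Guard transcripts thus outnumbered effector transcripts per length in every library, and the ratios of the groups overlapped.

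Among the BH3-only genes, which sense stress upstream of BAX and BAK, the largest changes belonged to Bik and Bcl2l11, both at a low level. Bik, whose product acts at the endoplasmic reticulum, stood at 1.195, 1.004 and 0.641 FPKM in Ctrl and at 1.66, 1.92 and 1.60 FPKM in BKO. Every BKO library lay above every Ctrl library, at 1.82 times the mean. The change was 0.49 (SE 0.133, 95% interval 0.18 to 0.80, unadjusted p = 0.00697, limma with Benjamini-Hochberg adjusted p = 0.287). With any 1 library left out it was 0.38 to 0.59, with an unadjusted p of 0.00457 to 0.0265. Bik is a low-level gene whose Ctrl mean of 0.947 FPKM lies under the filter, so it was tested only through its BKO values.

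Bcl2l11, which encodes BIM, stood at 1.63, 1.67 and 0.935 FPKM in Ctrl and at 2.17, 1.63 and 2.29 FPKM in BKO. BKO-2 lay within the Ctrl range, and the change was 0.34 (95% interval -0.04 to 0.71, adjusted p = 0.532). Bad, the most abundant BH3-only gene here, whose product is inactivated by growth factor signalling, stood at 19.4, 17.7 and 16.7 FPKM in Ctrl and at 16.3, 17.7 and 15.8 FPKM in BKO. Bid, which links death receptors to the mitochondrion, stood at 4.39, 4.12 and 3.77 FPKM in Ctrl and at 4.64, 5.53 and 4.11 FPKM in BKO. Bbc3, which encodes the p53 target PUMA, stood at 3.11, 2.54 and 2.63 FPKM in Ctrl and at 3.17, 2.46 and 2.36 FPKM in BKO. The groups overlapped for Bad, Bid and Bbc3, with changes of -0.10, 0.17 and -0.04. In the GENCODE annotation the exons of Bid and Bcl2l13 overlap on opposite strands by 628 bases. Whether the authors' counting used strand is not given in the sources used here, so reads there could count for either gene. In all, 13 members share exon sequence with other annotated genes, among them Bax, Bak1, Bad and Bcl2l2.

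**Figure D3:**
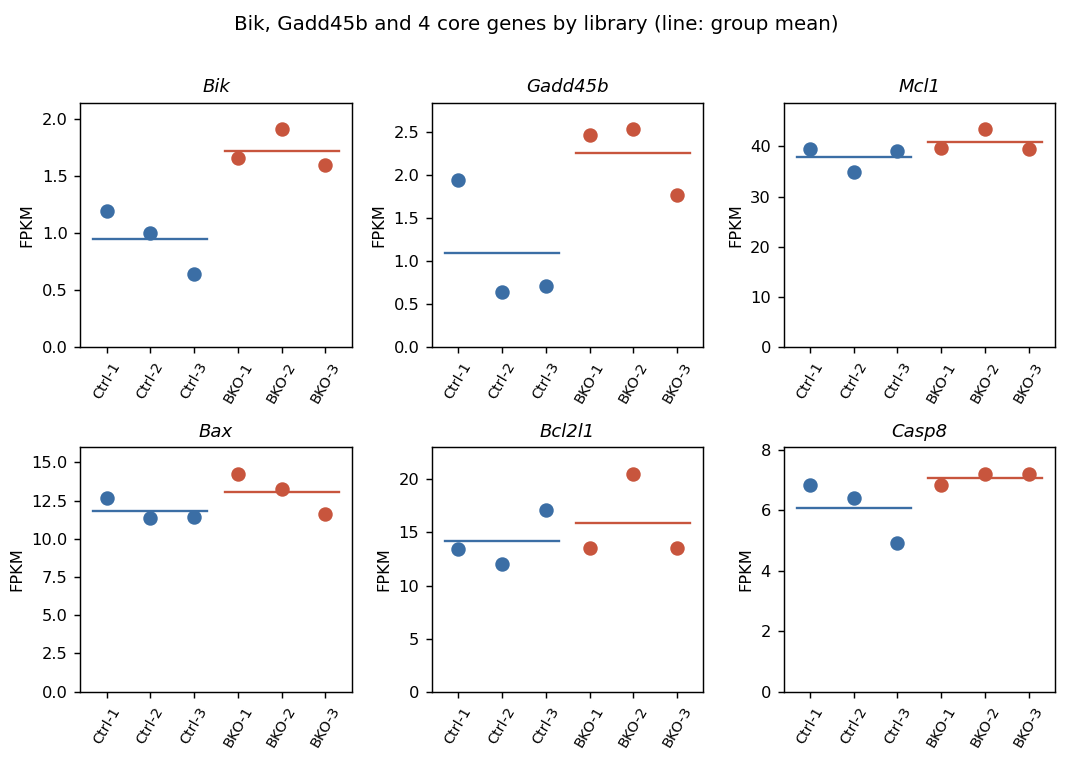
FPKM of Bik, Gadd45b, Mcl1, Bax, Bcl2l1 and Casp8 in each library (Ctrl blue, BKO red), with a line at each group mean. The groups are apart for Bik alone among these genes, while Ctrl-1 at 1.95 FPKM reaches the BKO values of Gadd45b.

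Downstream of the mitochondrion, Diablo, whose product SMAC blocks IAP proteins, stood at 33.2, 37 and 38.7 FPKM in Ctrl and at 36.04, 41.6 and 40.4 FPKM in BKO (change 0.11, 95% interval -0.09 to 0.32). Apaf1, the scaffold of the apoptosome, was near the lower end of the tested range, at 1.47, 1.05 and 1.48 FPKM in Ctrl and at 1.31, 1.08 and 1.08 FPKM in BKO. The groups overlapped for both. Diablo shares exon sequence with other annotated genes, among them B3gnt4 on the opposite strand.

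The caspases of apoptosis were present at low to moderate levels, and 0 of the 4 described here passed the test. Casp8, which death receptors activate, stood at 6.82, 6.41 and 4.92 FPKM in Ctrl and at 6.82, 7.21 and 7.18 FPKM in BKO. The low value of Ctrl-3 set most of the change of 0.20, which was 0.08 without that library. Casp9, which the apoptosome activates, stood at 4.34, 3.53 and 3.43 FPKM in Ctrl and at 3.89, 2.746 and 3.18 FPKM in BKO, a change of -0.16 with overlapping groups. Casp2, a caspase tied to DNA damage, had means of 2.46 ± 0.222 and 2.38 ± 0.209 FPKM in Ctrl and BKO (SD, n = 3 per group).

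Casp6, a caspase that cleaves lamins in dying cells, stood at 9.50, 7.94 and 7.12 FPKM in Ctrl and at 8.80, 9.01 and 8.01 FPKM in BKO. The groups overlapped, and its change was 0.07 (95% interval -0.18 to 0.33).

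The inflammatory caspases Casp1, Casp4 and Casp12 were the lowest of the caspases. Casp1, which matures interleukin-1 beta, stood at 0.374, 0.301 and 0.533 FPKM in Ctrl and at 1.31, 0.652 and 0.753 FPKM in BKO, so every BKO library lay above every Ctrl library. Casp4, the sensor of intracellular lipopolysaccharide, stood at 0.507, 0.461 and 0.642 FPKM in Ctrl and at 1.025, 1.63 and 0.621 FPKM in BKO, where BKO-3 lay within the Ctrl range. Casp12, a caspase of the endoplasmic reticulum, stood at 1.33, 0.720 and 0.607 FPKM in Ctrl and at 1.45, 1.68 and 1.16 FPKM in BKO, and Ctrl-1 overlapped BKO. Casp12 alone of the 3 was tested, through its BKO values, with a change of 0.38 (95% interval -0.01 to 0.77, adjusted p = 0.501).

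Bcl2a1b, a guard of the BCL2 family known from white blood cells, showed the widest gap among the untested genes. It stood at 0.440, 0.441 and 0.147 FPKM in Ctrl and at 1.85, 0.898 and 0.985 FPKM in BKO, which is 3.63 times the Ctrl mean, and all BKO libraries lay above all Ctrl libraries. Its near-identical copies were not analysed here, and reads could have been split among them. When every listed gene was tested without a filter, Bcl2a1b had a change of 0.72 (unadjusted p = 0.00451, adjusted p = 0.243, limma), Casp1 of 0.43 (adjusted p = 0.391) and Casp4 of 0.42 (adjusted p = 0.468). Birc5, which encodes the mitotic protein survivin, stood at 0.515, 0.333 and 0.326 FPKM in Ctrl and at 0.712, 0.430 and 0.808 FPKM in BKO.

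These low values carry a limit of the table itself. BKO-3 holds no value between 0 and 0.486 FPKM, while each of the other libraries holds 341 to 632 such values. In BKO-3, 10 genes are listed at 0. How the authors chose the genes to list is not given in the sources used here. Of the 1569 listed genes with a mean under 1 FPKM, 68.6% had the higher mean in BKO, and the BKO libraries lay above the Ctrl libraries for 14.98% and below for 2.804%. Bcl2a1b, Birc5, Casp1 and Casp4 are among these genes. With values between 0 and 0.486 FPKM missing from BKO-3 alone, gaps towards BKO are favoured in advance at this level. The p-values given above for Bcl2a1b, Casp1 and Casp4 do not allow for that. Macrophage markers were also higher in sum: 13 of 15 were listed, none at 0 in any library, with a summed level of 54.4 to 86.7 FPKM in Ctrl and 149 to 190 FPKM in BKO. All 12 tested macrophage markers had a positive change, with a median of 0.64, and 9 were higher at an unadjusted p below 0.05 (limma), against 6.63% of all genes. Lyz2, the lysozyme of macrophages, was the 1 of the 12 that passed after adjustment (adjusted p = 0.0195, limma). Fibroblast and preadipocyte markers, all 8 listed, summed to 207 to 248 FPKM in Ctrl and 253 to 292 FPKM in BKO. The part of either cell type in the values of Bcl2a1b, Casp1, Casp4 and Casp12 was not tested. Of the lymphocyte markers 2 of 11 were listed, with sums of 0.944 to 3.002 FPKM in Ctrl and 0.808 to 2.01 FPKM in BKO, and of the neutrophil and mast cell markers 3 of 9, with sums of 3.49 to 5.42 and 3.98 to 5.35 FPKM. Of the proliferation markers 2 of 10 were listed, at sums of 1.097 to 1.77 FPKM in Ctrl and 1.56 to 2.10 FPKM in BKO.

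**Figure D4:**
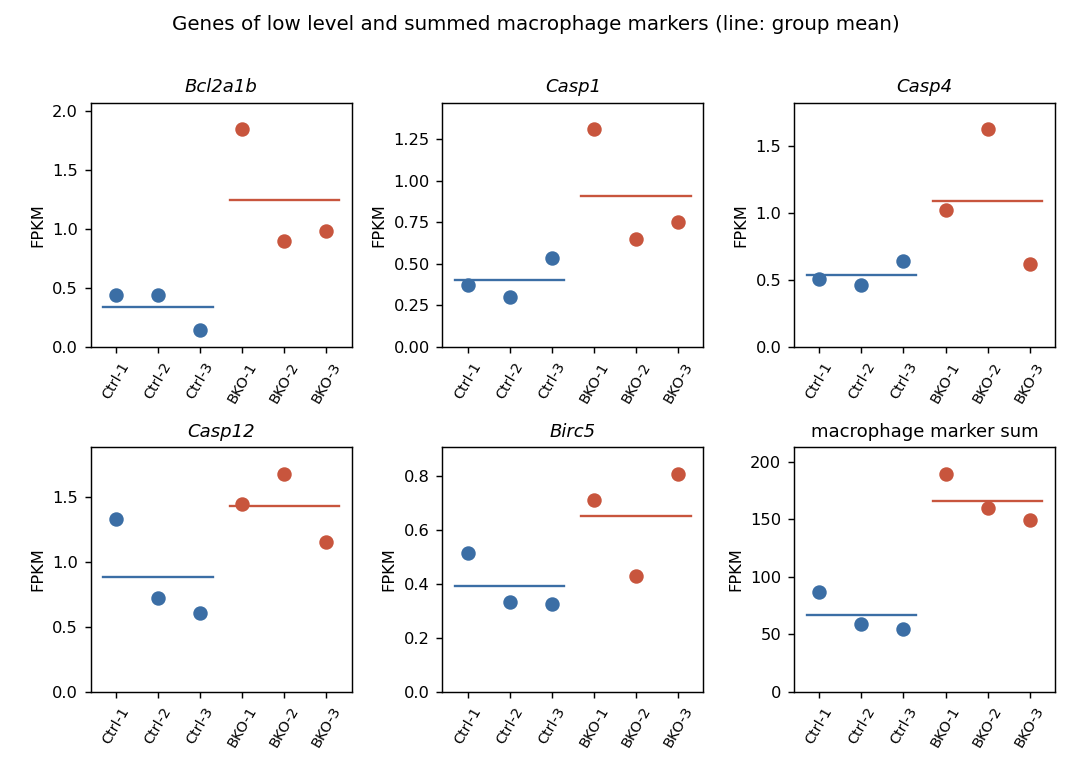
FPKM of Bcl2a1b, Casp1, Casp4, Casp12 and Birc5, and the summed FPKM of 13 macrophage markers, in each library (Ctrl blue, BKO red), with a line at each group mean. The groups are apart for Bcl2a1b, Casp1 and the macrophage sum, and overlap for Casp4, Casp12 and Birc5.

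Among the IAP genes, Xiap, the inhibitor that binds active caspases most tightly, was the most abundant. Xiap stood at 19.7, 20.95 and 24.4 FPKM in Ctrl and at 16.2, 17.2 and 22.3 FPKM in BKO, with BKO-3 inside the Ctrl range. The change was -0.22 (95% interval -0.53 to 0.09) and -0.35 without BKO-3 (unadjusted p = 0.0135, limma with Benjamini-Hochberg adjusted p = 0.250). Birc2, a ubiquitin ligase of tumour necrosis factor signalling, stood at 7.74, 6.65 and 7.14 FPKM in Ctrl and at 7.11, 6.91 and 7.65 FPKM in BKO, with overlapping groups. Birc3, its close relative, had means of 4.41 ± 0.507 and 5.0003 ± 0.845 FPKM in Ctrl and BKO (SD, n = 3 per group). Birc6, a giant ubiquitin-conjugating enzyme, had means of 5.27 ± 0.506 and 5.03 ± 0.669 FPKM. None of the 4 tested IAP genes passed, with adjusted p from 0.627 to 0.984.

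Trp53, the gene of p53, was slightly higher in every BKO library. It stood at 5.53, 5.43 and 5.88 FPKM in Ctrl and at 6.23, 6.59 and 6.02 FPKM in BKO. The difference between the closest libraries of the groups was small, and the change of 0.14 (SE 0.0769, 95% interval -0.04 to 0.32) did not pass (adjusted p = 0.600). Mdm2, the ligase that marks p53 for degradation and is itself a p53 target, stood at 13.2, 13.03 and 14.6 FPKM in Ctrl and at 11.1, 13.7 and 15.2 FPKM in BKO. Both the highest and the lowest value of Mdm2 were BKO libraries, and its change was -0.04 (95% interval -0.31 to 0.24).

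Of the 7 genes grouped here as p53 targets, 0 passed the test. A positive change was seen in 6, against 51.6% of all genes tested, and a negative one in 1, Phlda3, with a median change of 0.14. The group leaves out p53 targets described under other roles, among them Mdm2, Bbc3, Bax and Apaf1. Their changes were -0.04, -0.04, 0.13 and -0.11. Fas, the death receptor gene, stood at 14.0, 12.8 and 12.6 FPKM in Ctrl and at 15.4, 14.4 and 14.0 FPKM in BKO. The BKO libraries lay just above the Ctrl libraries, with a change of 0.14 (SE 0.0753, 95% interval -0.03 to 0.32, adjusted p = 0.580). Ccng1, cyclin G1, was the steadiest member, at 55.2, 52.7 and 51.0 FPKM in Ctrl and at 55.0, 55.4 and 56.8 FPKM in BKO. Its spread within the groups, 0.0438 as an SD on the log2 scale, was larger than that of only 3.03% of all genes tested.

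Cdkn1a, which encodes the cell cycle inhibitor p21, varied nearly 3-fold between libraries without separating the groups. It stood at 40.8, 26.5 and 61.2 FPKM in Ctrl and at 23.5, 66.3 and 56.5 FPKM in BKO. Trp53inp1, which encodes a stress protein that promotes p53 activity, had the same 3 libraries on top. It stood at 6.88, 3.84 and 11.7 FPKM in Ctrl and at 5.38, 13.4 and 14.4 FPKM in BKO. Ctrl-3, BKO-2 and BKO-3 were high for both genes and Ctrl-2 and BKO-1 were low. The SD within groups was 0.694 for Cdkn1a and 0.699 for Trp53inp1 on the log2 scale, larger than for 98.6% of all genes tested in each case.

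The changes of both genes followed from which libraries were counted. Cdkn1a had a change of 0.14 (95% interval -0.86 to 1.13), which was 0.58 without BKO-1, 0.43 without Ctrl-3, -0.16 without Ctrl-2, -0.15 without BKO-2 and -0.03 without BKO-3. Trp53inp1 had a change of 0.51 (95% interval -0.49 to 1.52, adjusted p = 0.738), which was 0.92 without BKO-1 (unadjusted p = 0.0430, limma with Benjamini-Hochberg adjusted p = 0.628), 0.86 without Ctrl-3, 0.34 without BKO-2, 0.29 without BKO-3 and 0.17 without Ctrl-2. Other genes split the libraries in the same way. Tsc22d3, which encodes the glucocorticoid-induced protein GILZ and was picked with its values in view, stood at 29.2, 21.1 and 41.7 FPKM in Ctrl and at 17.1, 47.1 and 39.0 FPKM in BKO. Per1, a clock gene that glucocorticoids also induce and that was chosen in the same way, stood at 20.1, 17.3 and 27.0 FPKM in Ctrl and at 14.4, 26.3 and 26.7 FPKM in BKO. What sets this order of libraries was not tested.

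Phlda3 and Gadd45a were spread in another order. Phlda3, a p53-induced inhibitor of AKT, stood at 104 and 104 FPKM in Ctrl-1 and Ctrl-2 and 68.5 FPKM in Ctrl-3, and at 96.0 and 105 FPKM in BKO-1 and BKO-2 and 67.7 FPKM in BKO-3. One library of each group was thus low, and the change was -0.04 (95% interval -0.54 to 0.46). Gadd45a, a growth arrest gene, stood at 1.72, 1.55 and 0.696 FPKM in Ctrl and at 2.97, 2.18 and 1.26 FPKM in BKO, with BKO-3 within the Ctrl range. Its change was 0.43 (95% interval -0.16 to 1.01, adjusted p = 0.624). Zmat3, a zinc finger gene, had means of 1.28 ± 0.231 and 1.38 ± 0.110 FPKM in Ctrl and BKO (SD, n = 3 per group).

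**Figure D5:**
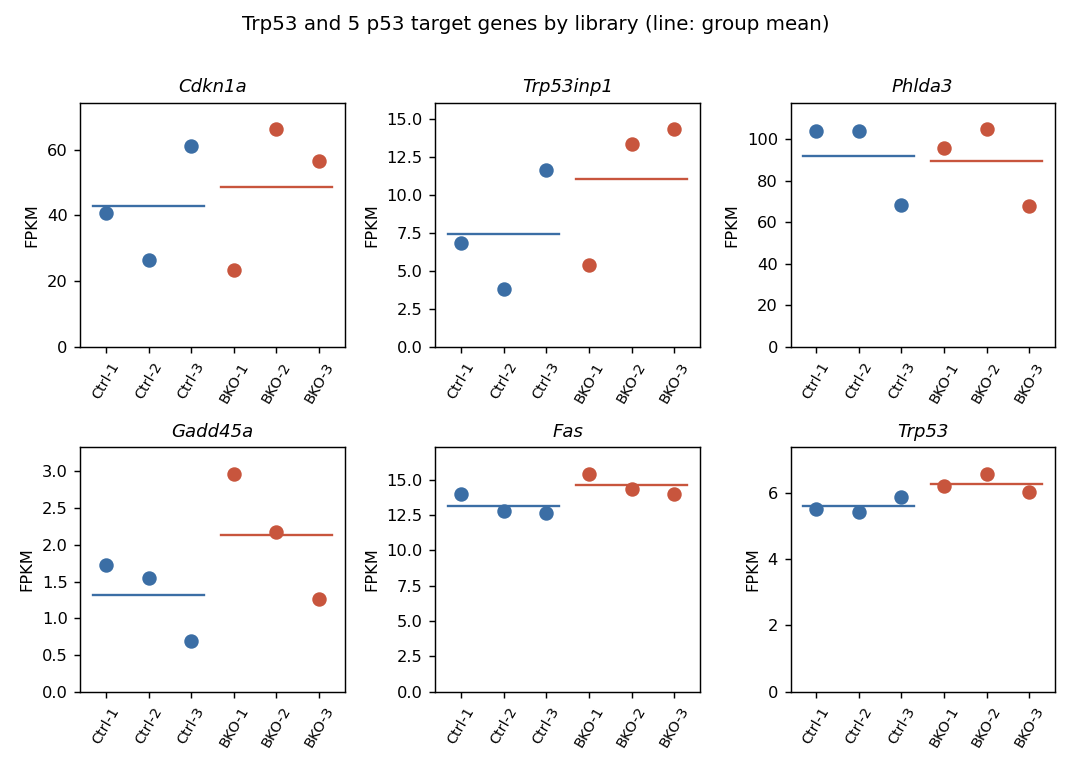
FPKM of Cdkn1a, Trp53inp1, Phlda3, Gadd45a, Fas and Trp53 in each library (Ctrl blue, BKO red), with a line at each group mean. Ctrl-3, BKO-2 and BKO-3 are high for Cdkn1a and Trp53inp1, and Fas and Trp53 differ little between libraries.

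Gadd45b and Gadd45g, stress-induced relatives of Gadd45a, differed by over an order of magnitude in level. Gadd45b stood at 1.95, 0.637 and 0.710 FPKM in Ctrl and at 2.47, 2.54 and 1.77 FPKM in BKO. Ctrl-1 lay above BKO-3, so the groups overlapped. Its change of 0.68 was the largest of the 37 (SE 0.235, 95% interval 0.13 to 1.23, unadjusted p = 0.0222, limma with Benjamini-Hochberg adjusted p = 0.412). Without Ctrl-1 the change was 0.95 (adjusted p = 0.116), and without Ctrl-2 it was 0.53 (adjusted p = 0.820). Without Ctrl-2, Ctrl-3, BKO-1 or BKO-2 the unadjusted p was 0.0628 to 0.0742. Gadd45g stood at 96.8, 74.2 and 120.2 FPKM in Ctrl and at 109, 126 and 122 FPKM in BKO, a change of 0.31 (95% interval -0.07 to 0.70), and 0.14 without Ctrl-2, its lowest library.

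The 3 remaining members carry BCL2 or caspase symbols but have other or less settled roles, and all had a negative change that did not pass. Bcl2l13, a mitochondrial protein that takes part in mitophagy, stood at 24.1, 24.1 and 23.9 FPKM in Ctrl and at 20.2, 21.5 and 24.3 FPKM in BKO. Casp8ap2, a cofactor in histone gene expression, stood at 1.82, 1.97 and 1.81 FPKM in Ctrl and at 1.54, 0.939 and 1.88 FPKM in BKO. BKO-3 was the highest BKO library for Bcl2l13 and Casp8ap2 and overlapped Ctrl. Bcl2l12 stood at 5.28, 4.504 and 3.84 FPKM in Ctrl and at 4.22, 4.14 and 3.70 FPKM in BKO, again with overlapping groups.

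Members also differed in how far the libraries lay apart. The highest library exceeded the lowest more than 2-fold in 8 of 37 tested members (21.6%), against 9.84% of all genes tested. These were Bcl2l11, Bik, Gadd45a, Gadd45b, Casp12, Casp8ap2, Cdkn1a and Trp53inp1. All but Cdkn1a and Trp53inp1 had means of only 1.16 to 1.73 FPKM over the libraries, near the filter. The share was not compared with genes of like level, and the ratio also holds any difference between the groups. The median ratio of highest to lowest library was 1.43 for members and 1.34 for all genes.

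The p53 motif was searched in the promoters, because targets and regulators of p53 are among these genes. Promoter windows run from 250 bases before to 50 bases after each start site and come from RefSeq (build GRCm38.p6, another build than the authors used), matched by symbol for 36 of 41 members (not, among others, Bik, Trp53inp1 and Zmat3). A match to the p53 consensus repeat, in a single copy and on either strand, was found in a window of 8 members, or 22.2%, against 9.55% of all 27025 genes. Of these, 5 belong to the 7 matched genes grouped here under p53 (Trp53, Mdm2 and the p53 target group). These were taken for their known tie to p53, so the share is not independent of the choice of genes. Among the other 29 matched members 3 held it, or 10.3%. These 29 still include p53 targets, such as Bbc3 and Bax, and Bax held a match. The split thus does not set p53 targets apart from the rest. The 7 stretches below show each match in capitals with 20 bases on either side, on the strand of the gene, and the Trp53 match follows further on. Cdkn1a holds 2 matches.
Cdkn1a at chr17:29090886-29090957 (+): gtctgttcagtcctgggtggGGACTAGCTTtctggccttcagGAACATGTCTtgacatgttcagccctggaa
Ccng1 at chr11:40755442-40755491 (-): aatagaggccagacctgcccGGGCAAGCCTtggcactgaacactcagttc
Mdm2 at chr10:117710915-117710964 (-): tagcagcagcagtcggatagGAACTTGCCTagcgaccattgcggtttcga
Gadd45a at chr6:67037418-67037467 (-): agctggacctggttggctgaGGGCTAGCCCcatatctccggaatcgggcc
Bax at chr7:45467070-45467119 (-): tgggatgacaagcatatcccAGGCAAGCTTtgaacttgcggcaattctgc
Birc2 at chr9:7836767-7836816 (-): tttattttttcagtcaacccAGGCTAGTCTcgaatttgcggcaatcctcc
Birc5 at chr11:117848989-117849038 (+): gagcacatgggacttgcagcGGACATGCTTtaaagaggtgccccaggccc

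Members with a match differed in their course across the libraries: Cdkn1a varied nearly 3-fold between libraries while Ccng1 was the steadiest member. The E-box CACGTG was searched in the same windows on both strands. It was found in a window of 7 members (Bax, Bbc3, Casp1, Fas, Gadd45b, Gadd45g and Trp53), or 19.4%, against 8.09% of all genes. For both motifs the members are genes listed in this tissue, while all genes include those not listed. The shares are thus not of like sets, and no test was run on them. Bax and Trp53 held both motifs. The window of Trp53, the gene of p53 itself, is given whole, with the p53 repeat and the E-box in capitals. A match describes the letters of a window and shows no binding.
Trp53 at chr11:69580109-69580408 (+): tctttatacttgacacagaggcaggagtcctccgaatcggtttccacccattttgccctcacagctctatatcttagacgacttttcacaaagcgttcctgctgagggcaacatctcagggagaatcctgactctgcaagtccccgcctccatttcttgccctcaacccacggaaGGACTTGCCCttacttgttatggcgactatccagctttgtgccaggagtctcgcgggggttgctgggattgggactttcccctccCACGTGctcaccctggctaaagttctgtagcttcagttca

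Genes of the same pathways outside these symbols did not pass in any of the 6 lists examined (limma with Benjamini-Hochberg adjustment). Of 22 tested p53 targets outside the list, 0 passed after adjustment, and 3 were higher (13.6%, against 6.63% of all genes) and 0 lower (against 3.52%) at an unadjusted p below 0.05. Sesn2, which encodes sestrin 2 and responds both to p53 and to the integrated stress response, came closest to the threshold. It stood at 7.86, 7.92 and 8.10 FPKM in Ctrl and at 11.8, 14.9 and 14.0 FPKM in BKO, a clear separation of the libraries, with a change of 0.69 and an adjusted p = 0.0568. Ephx1, the epoxide hydrolase gene, stood at 9.15 ± 1.18 and 13.05 ± 2.99 FPKM (SD, n = 3 per group), with overlapping groups and an adjusted p = 0.438.

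None of the 12 tested upstream regulators of p53 passed, and their median change was -0.05. Rpl5, a ribosomal protein that binds MDM2, had an adjusted p = 0.662 and Hipk2, a kinase of p53, an adjusted p = 0.715. Of 14 tested mitochondrial death genes, 0 passed and the median change was 0.00. Endog, a mitochondrial nuclease, stood at 19.9, 20.7 and 23.7 FPKM in Ctrl and at 26.0, 26.4 and 25.9 FPKM in BKO, with separate groups and an adjusted p = 0.327. Vdac2, an outer membrane channel that binds BAK, had means of 149 ± 2.79 and 138 ± 8.39 FPKM (SD, n = 3 per group), with BKO below Ctrl in every library and an adjusted p = 0.625. Of 12 tested death receptor genes, 0 passed, and the lowest unadjusted p belonged to Tnfrsf21 (change 0.27, adjusted p = 0.554) and Tnfrsf1a (change 0.18, adjusted p = 0.600).

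Of 15 inflammasome and pyroptosis genes, 2 were listed, and neither passed. Gsdmd, the pore former cleaved by inflammatory caspases, stood at 2.29 ± 0.420 and 2.60 ± 0.390 FPKM (SD, n = 3 per group). Il1rn, the interleukin-1 receptor antagonist, stood at 1.64, 2.86 and 1.86 FPKM in Ctrl and at 4.64, 4.36 and 3.15 FPKM in BKO, with an adjusted p = 0.270. The integrated stress response list, whose factor CHOP (Ddit3) is known to induce several BH3-only genes, had 0 of 12 past the test, 4 higher (33.3%, against 6.63% of all genes) and 0 lower at an unadjusted p below 0.05. Of these 12 genes, 11 had a positive change, against 51.6% of all genes, and the median change was 0.40. Sesn2 belongs both to this list and to the p53 targets outside the list, and counts as higher in both. Trib3, a pseudokinase induced by CHOP, stood at 2.65, 2.698 and 1.85 FPKM in Ctrl and at 8.88, 9.35 and 3.83 FPKM in BKO (change 1.23, adjusted p = 0.248).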

How the data were processed

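Per the submitters' processing notes, the authors' tools were Cufflinks 2.2.1, TopHat2 2.0.12 and CASAVA 1.8, and the build was NCBIM37. For the options and the annotation, nothing is given in the sources used here. The authors deposited 1 FPKM value per gene and library. The columns named MT hold Ctrl and those named WT hold BKO, per the labels' descriptions, and 0 columns were unmapped. Values as low as 2.16e-227 FPKM show estimates and not whole reads, so no count model was used. Sums of FPKM were 1119230 to 1617960 in 5 libraries and 2808870 in BKO-3.

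Values were taken as log2(FPKM + 1) and tested with limma 3.58.1 in R 4.3.3 (intensity trend, no covariate, Benjamini-Hochberg at 0.05) over the 11397 genes whose mean reached 1 FPKM. The members and lists were chosen with earlier results of these data known. Values in every library were given for members past an unadjusted p of 0.05, for the 2 most abundant and the 1 with the largest change in each role, and for a set of core genes. Tsc22d3 and Per1 were chosen after their values were seen. The 17 alternatives covered pseudocounts, filters, scalings, empirical Bayes settings, library weights, the replicate block, a muscle score and leaving out each library. The fit was tested on simulated data. Results of 2 members are not reported here, and counts over the 37 tested members include them.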

Additional observations from a re-analysis of the deposited data

How the results depend on the processing

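The count of members past an adjusted p of 0.05 was 0 in all 17 alternatives (limma), where the lowest adjusted p of a member was 0.116 (Gadd45b without Ctrl-1). At an unadjusted p below 0.05 the count was 2, and 5 with no filter on low values (Bcl2a1b, Casp1 and Casp4 added), 0 with a mean of at least 5 FPKM, where fewer genes were tested, 6 with library weights, and 1 to 7 with 1 library left out, 7 of them without BKO-3 and 1 without Ctrl-2. With the replicate block it was 5 (Bik, Casp12, Gadd45a, Gadd45b and Xiap). The share of all genes at an unadjusted p below 0.05 is not given for these alternatives. A higher count there is thus not a result about the members. The samples share only a number: same-numbered libraries correlated at -0.104 to 0.196 in their deviations from the group means, and 1 of 3 Ctrl libraries correlated best with its own number. The block moved the count over all genes from 19 to 25. That count was 10 with a mean of at least 5 FPKM, 33 with robust empirical Bayes, 54 with library weights, 9 with the muscle score as covariate, and 6 to 44 with 1 library left out (6 without BKO-1, 9 without Ctrl-2, 44 without BKO-3). The cause was not tested. The median change of the members, 0.07, was 0.0112 to 0.10 with 1 library left out, the lowest without Ctrl-3. Bscl2 passed in all 17 alternatives.

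Of 483 recomputed changes of 29 named members, 18 in 8 members had the other sign, each for a change that did not pass in either setting. Birc2 was -0.0107 with median ratio rescaling and -0.00941 with quantile normalization. With library weights Apaf1 was 0.000425 and Bbc3 0.0351. With 1 library left out the ranges were -0.14 to 0.0243 for Bbc3, -0.0462 to 0.28 for Bcl2l1, -0.0386 to 0.0578 for Birc2, -0.0138 to 0.17 for Casp6, -0.16 to 0.58 for Cdkn1a, -0.13 to 0.0809 for Mdm2 and -0.24 to 0.15 for Phlda3. Outside the 29, Birc6, Casp2 and Zmat3 also took the other sign in some alternatives. Birc6 was 0.0271 without BKO-2, Casp2 0.0190 without Ctrl-1 and Zmat3 -0.0284 with library weights. The number of reads is unknown, so the counting error behind values near 1 FPKM cannot be given.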
